A study of Mus musculus with 2 samples.

Results

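The genes described here are 10 genes of vasodilator peptide signalling: the receptor genes Calcrl, Vipr1, Vipr2, Adcyap1r1 and Pth1r, the receptor activity-modifying protein genes Ramp1, Ramp2 and Ramp3, and the peptide genes Adm and Calca. They were chosen by symbol from 32531 genes listed in the deposited counts, and all 10 had a row. The RNA was bound to ribosomes of the adult mouse cerebral cortex. The mice carried the Gdnf-EGFP/Rpl10a transgene of line ES2243, in which a ribosomal protein tagged with enhanced green fluorescent protein is made under the control of Gdnf, and received no treatment. Polysomes were captured with anti-EGFP antibodies (translating ribosome affinity purification, TRAP) to profile pericytes, the mural cells of capillaries. The 2 libraries, IP1 and IP2, form a single group with no control, so levels and the spread between libraries are described and no condition is compared. Whether IP1 and IP2 came from different animals or from pools is not given in the labels, and their spread may be technical.

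The receptors belong to class B of the G protein-coupled receptors and act mainly through the stimulatory G protein and cyclic AMP, which relaxes vascular smooth muscle. The protein made from Calcrl reaches the cell surface only with a RAMP partner, and the partner sets the ligand. With RAMP1 it is the receptor of calcitonin gene-related peptide (CGRP), and with RAMP2 or RAMP3 it is a receptor of adrenomedullin. Vipr1 and Vipr2 encode receptors that bind both vasoactive intestinal peptide (VIP) and the pituitary adenylate cyclase-activating peptide (PACAP), while the receptor encoded by Adcyap1r1 prefers PACAP. Pth1r encodes the receptor of parathyroid hormone and of its relative PTHrP, a peptide made locally in vessel walls.

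The reads counted in genes totalled 65200231 in IP1 and 72732502 in IP2. Values are given as CPM, the count of a gene scaled to 1000000 of these reads. No gene lengths were used, so a CPM value compares a gene between libraries, and the order of different genes is not read from it. Counting error alone did not account for the spread between IP1 and IP2 (chi-square divided by its degrees of freedom, 88.9 over 17306 genes), and they were kept as 2 samples. All 16 pericyte and pan-mural markers reached 10 CPM in both libraries, as did all 8 markers each of arterial smooth muscle, of oligodendrocyte precursors, of oligodendrocytes and of excitatory neurons. All 11 perivascular fibroblast markers, 8 of 9 astrocyte and 7 of 9 inhibitory neuron markers also did. Endothelial markers (2 of 17) and microglial markers (0 of 8) were scarce. Of all 19580 genes with a count, 47% reached 10 CPM in both libraries. Markers of several cell types were thus counted, and with no control the part of each type in the counts below was not measured. Gdnf, whose regulatory sequences drive the tag, had 10.2 CPM in IP1, against 7.84 CPM in IP2.

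Of the 10 genes, 5 reached 10 CPM in both libraries: Calcrl, Adcyap1r1, Pth1r, Ramp1 and Ramp2. Of all 19580 genes with a count, 47% did, so this share is near that of all genes. The median over the 10 was 8.58 CPM in IP1 and, in IP2, 9.22 CPM, against medians of 9.52 and 9.20 CPM over those 19580 genes. Vipr1, Vipr2, Ramp3, Adm and Calca were below 10 CPM in both libraries. Calca was the only member with a mean under 1 CPM, and the ratios between libraries below are set against the 13956 genes that averaged 1 CPM or more.

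**Figure D1:**
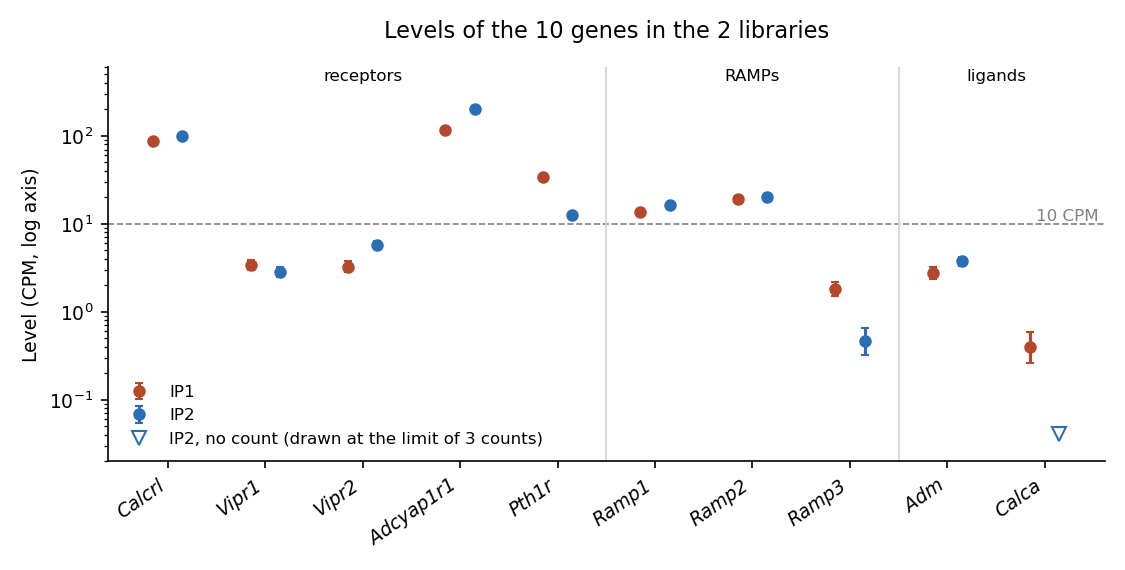
Level of each gene in CPM on a log axis, with IP1 left of IP2 and the exact 95% Poisson interval of each count, which covers counting error only. Calcrl and Adcyap1r1 stand between 87.8 and 200.4 CPM in both libraries. Pth1r and Ramp3 are higher in IP1 beyond their intervals, and Calcrl, Adcyap1r1, Vipr2, Ramp1 and Adm are higher in IP2 beyond theirs. The intervals of Vipr1 and Ramp2 overlap. Calca had no count in IP2, drawn at the limit of 3 counts (0.041 CPM).

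Calcrl (chromosome 2, 84330626 to 84425405, mm10), the receptor shared by CGRP and adrenomedullin, had 87.8 CPM in IP1 (exact 95% interval 85.5 to 90.1) and 100.5 CPM in IP2 (98.2 to 102.9). Its mean was 94.1 ± 9.03 CPM (SD, n = 2), from 5722 and 7312 counts. The libraries lay within 1.15-fold of each other, with a log2 ratio of IP1 over IP2 of -0.20. Of 3546 other genes with a mean level within 2-fold of that of Calcrl, 46.9% differed at least as much between the libraries. Intervals given here and below cover counting error only.

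Ramp1 (chromosome 1, 91179822 to 91225196), whose protein makes the CGRP receptor with that of Calcrl, had 13.8 CPM in IP1 and 16.5 CPM in IP2 (mean 15.1 ± 1.91, SD, n = 2). Ramp2 (chromosome 11, 101246334 to 101248250), the adrenomedullin partner, had 19.1 CPM in IP1 and 20.3 CPM in IP2 (mean 19.7 ± 0.84, SD, n = 2). Both differed little between the libraries, with log2 ratios of -0.26 for Ramp1 and -0.09 for Ramp2. Ramp3 (chromosome 11, 6658506 to 6677478), the other adrenomedullin partner, had 118 counts or 1.81 CPM in IP1 (1.498 to 2.17) and 34 counts or 0.47 CPM in IP2 (0.32 to 0.65). It was 3.87-fold higher in IP1 (exact 95% interval 2.62 to 5.85). Part of its span overlaps the pseudogene Gm11978, which had 11 counts in IP1 and 0 in IP2. Of 2005 other genes with a mean within 2-fold of that of Ramp3, 16.6% differed at least as much.

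The proportions of Calcrl and its partners can be compared between libraries, because gene length cancels. The count of Calcrl was 6.37 times that of Ramp1 in IP1 and 6.10 times in IP2, and 4.59 times that of Ramp2 in IP1 and 4.95 times in IP2. The count of Ramp1 was 0.72 times that of Ramp2 in IP1 and 0.81 times in IP2. The log2 changes of these 3 proportions, IP1 against IP2, were 0.06, -0.11 and -0.17, in that order. Ramp1 held 39.7% of all RAMP counts in IP1 (exact binomial 95% interval 37.7 to 41.8%) and 44.2% in IP2 (42.4 to 46.1%). Ramp2 held 55.1% (53.01 to 57.1%) in IP1 and 54.5% (52.6 to 56.4%) in IP2. Ramp3 held 5.22% (4.34 to 6.21%) in IP1 and 1.26% (0.87 to 1.75%) in IP2. The intervals overlapped between libraries for Ramp2, and did not for Ramp1 and Ramp3. Shares of counts are not shares of molecules, since the transcripts may differ in length.

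**Figure D2:**
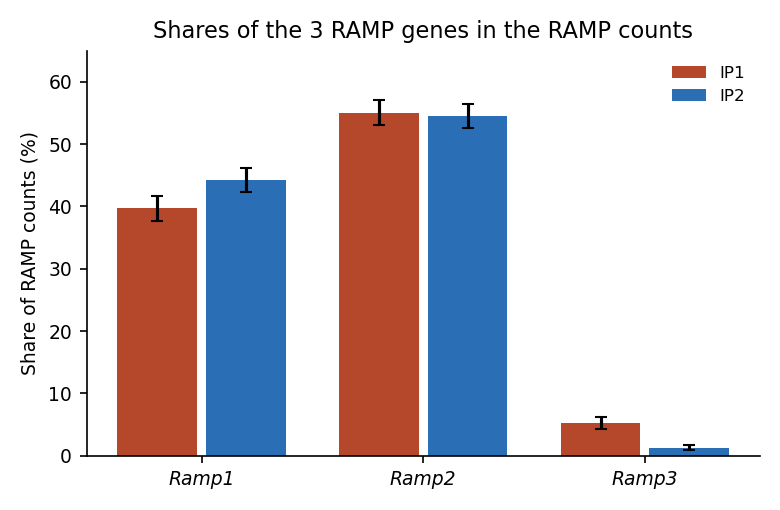
Share of the counts of the 3 RAMP genes held by each, in percent, with IP1 left of IP2 and exact binomial 95% intervals. Ramp2 and Ramp1 held nearly all of the RAMP counts in both libraries, and the share of Ramp3 was 5.22% in IP1 and 1.26% in IP2.

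Calcrl and Ramp2 are also known from endothelial cells, the neighbours of pericytes. The 17 endothelial markers summed to 108 CPM in IP1, against 109 CPM in IP2, and their list medians were 1.66 and 1.46 CPM. The highest by CPM, without length correction, were Emcn (42.1 CPM in IP1, 33.3 CPM in IP2) and Itm2a (25.9 and 24.7 CPM). Cldn5, the tight junction gene of brain endothelium, had 5 counts in IP1 (0.077 CPM) and none in IP2, and Pecam1 had 0.18 CPM in IP1, against 0.49 CPM in IP2. Markers of the other cell types named above were also counted. The part of endothelial cells and of these other cell types in the counts of Calcrl, Ramp1 and Ramp2 was not tested. In bulk RNA of this kind, fewer cells of a type and less RNA per cell cannot be told apart.

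The peptide genes of this branch were scarce. Adm (chromosome 7, 110627657 to 110629820), the adrenomedullin gene, had 2.76 CPM in IP1 (2.37 to 3.19) and 3.74 CPM in IP2 (3.31 to 4.21), with a log2 ratio of -0.44. Calca (chromosome 7, 114625981 to 114636910), which yields calcitonin or CGRP by alternative splicing, had 26 counts or 0.40 CPM in IP1 (0.26 to 0.58) and no count in IP2. Taking the 26 counts as given, and against the limit of 3 counts in IP2, Calca was at least 9.67-fold higher in IP1. The exact 95% interval of the ratio, which also covers the counting error of IP1, starts at 7.32. Counts per gene do not show which of the 2 spliced products was present. Of the related ligand genes, Calcb had no count in IP1 and 0.12 CPM in IP2, and Iapp and Adm2 had no count in either library. A gene without counts could have had up to 0.046 CPM in IP1 and 0.041 CPM in IP2.

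Adcyap1r1 (chromosome 6, 55451501 to 55501455), the PACAP receptor gene, had 7538 counts in IP1 and 14574 in IP2. This corresponded to 115.6 CPM in IP1 (113.02 to 118.3) and 200.4 CPM in IP2 (197.1 to 203.7), with a mean of 158 ± 59.9 CPM (SD, n = 2). The log2 ratio of IP1 over IP2 was -0.79 (exact 95% interval -0.83 to -0.75). At this level such a gap was uncommon: of 2602 other genes with a mean within 2-fold of that of Adcyap1r1, 43 (1.65%) differed at least as much.

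Vipr2 (chromosome 12, 116077420 to 116148637), a VIP and PACAP receptor gene, had 3.27 CPM in IP1 (2.84 to 3.74) and 5.76 CPM in IP2 (5.22 to 6.34). Its log2 ratio was -0.82 (-1.06 to -0.58), close to that of Adcyap1r1, and the count of Adcyap1r1 was 35.4 times that of Vipr2 in IP1 and 34.8 times in IP2. At the lower level of Vipr2, 23.6% of 2801 genes within 2-fold of its mean differed as much. Vipr1 (chromosome 9, 121642716 to 121672954) had 3.39 CPM in IP1 (2.96 to 3.87) and 2.85 CPM in IP2 (2.47 to 3.26), and these intervals overlapped. The count of Vipr1 was 1.04 times that of Vipr2 in IP1 and 0.49 times in IP2.

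The ligand genes of these receptors were counted at low levels. Adcyap1, the PACAP gene, had 3.94 CPM in IP1, against 3.64 CPM in IP2, and Vip, the gene of VIP and a marker of a class of cortical interneurons, had 2.76 CPM in IP1 and 3.92 CPM in IP2. Markers of several cell types moved mostly in the same direction as Adcyap1r1 and Vipr2. Of 9 astrocyte markers, 7 were higher in IP2, with a list median log2 ratio of -0.38 and a summed level of 2244 CPM in IP1, against 3274 CPM in IP2. Among pericyte and pan-mural markers, 10 of 16 were higher in IP2, with a median of -0.42 and a sum of 7798 CPM in IP1, against 7340 CPM in IP2. Perivascular fibroblast markers (10 of 11 higher in IP2, median -0.45, sums of 4369 and 5945 CPM) and oligodendrocyte precursor markers (6 of 8, median -0.37, sums of 2515 and 3079 CPM) were also mostly higher in IP2. So were oligodendrocyte markers (5 of 8, median -0.24) and endothelial markers that averaged 1 CPM or more (6 of 11, median -0.26). Medians were near 0 for arterial smooth muscle markers (5 of 8 higher in IP2, -0.01) and microglial markers that averaged 1 CPM or more (4 of 7, -0.00097). Excitatory neuron markers (3 of 8 higher in IP2, median 0.14) and inhibitory neuron markers (4 of 9, median 0.09) were not mostly higher in IP2. The part of these cells in the difference of Adcyap1r1 and Vipr2 was not tested.

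Pth1r (chromosome 9, 110722085 to 110747145), the PTH and PTHrP receptor gene, went the other way. It had 2235 counts or 34.3 CPM in IP1 (32.9 to 35.7) and 922 counts or 12.7 CPM in IP2 (11.9 to 13.5), with a mean of 23.5 ± 15.3 CPM (SD, n = 2). It was 2.70-fold higher in IP1 (exact 95% interval 2.50 to 2.92). Of 4504 other genes with a mean within 2-fold of that of Pth1r, 14 (0.311%) differed at least as much. The highest log2 ratio of any pericyte and pan-mural marker was 0.70, of any arterial smooth muscle marker 0.31, of any perivascular fibroblast marker 0.09 and of any astrocyte marker 0.08, against 1.44 for Pth1r. The highest was 0.80 among inhibitory neuron, 0.26 among excitatory neuron, 0.21 among oligodendrocyte and 0.11 among oligodendrocyte precursor markers. Among endothelial and microglial markers that averaged 1 CPM or more, Tek (1.74) and C1qb (1.40) had the highest ratios, at mean levels of 2.18 and 1.48 CPM. The part of these cells in the difference of Pth1r was not tested. Besides Adm and Calca, 8 peptide genes were listed, not all of which encode ligands of the receptors described here. Of these 8, 0 reached 10 CPM in both libraries, where 47% of all genes with a count did. Their median was 0 in IP1 and 0.062 CPM in IP2. The ligand gene Pthlh, which encodes PTHrP, had 6.89 CPM in IP1, against 3.55 CPM in IP2. Pth, and the related peptide gene Pth2, had no count in either library.

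Over the 9 genes that averaged 1 CPM or more, Pth1r and Ramp3 differed by 2-fold or more between the libraries, both higher in IP1. This was 2 of 9, against 7.34% of all 13956 genes in either direction and 4.06% towards IP1. Ramp3 reached a mean of 1 CPM only through IP1, where it was higher, and without it the count is 1 of 8. Towards IP2, 0 of the 9 passed 2-fold, against 3.28% of all genes. Without the filter on low levels, Calca made it 3 of 10, against 26.5% of the 19580 genes with a count. With Adcyap1r1 and Vipr2, 4 of the 9 passed 1.5-fold, against 20.9% of all genes. The median absolute log2 ratio was 0.44 over the 9 genes and 0.27 over all genes. Both values, and the directions below, include Ramp3, and the comparison with all genes is not matched for level. Past 1.5-fold were 55.6% of genes averaging 1 to under 3 CPM, 35.3% from 3 to under 10 CPM and 19.2% from 10 to under 30 CPM. From 30 to under 100 CPM the share was 7.98%, and at 100 CPM or more it was 4.07%. In direction, 3 of the 9 were higher in IP1 and 6 in IP2, while 54.1% of all genes were higher in IP1. That majority depends on the scaling, since 48.3% of all genes were higher in IP1 under edgeR TMM and 48.0% under DESeq2 size factors, while no member changed sign.

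**Figure D3:**
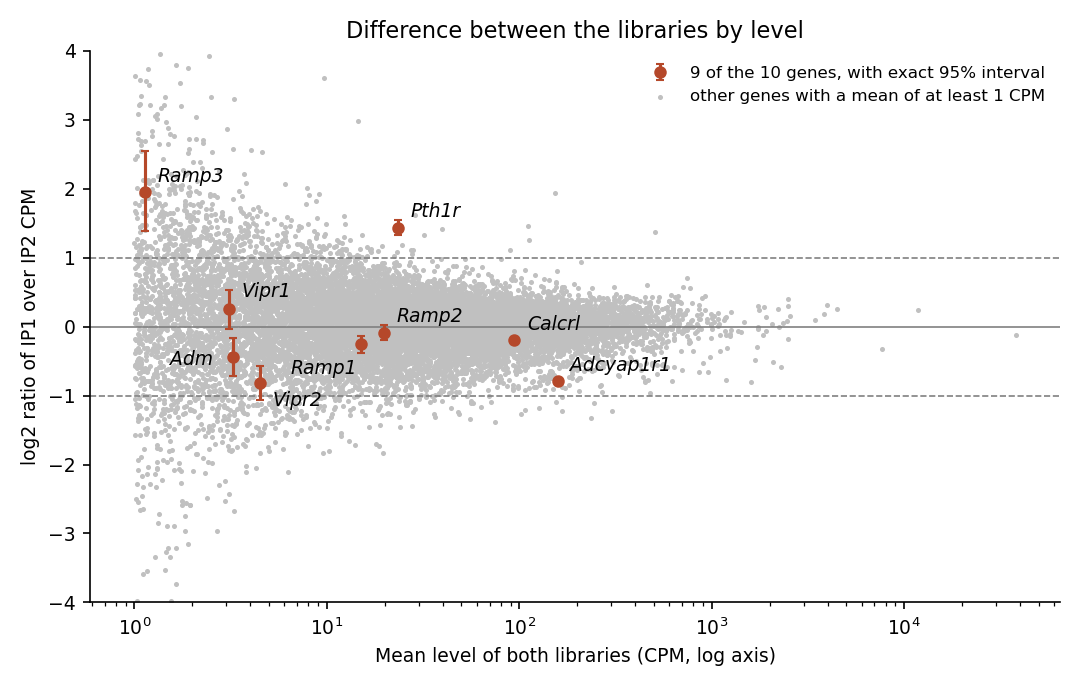
Log2 ratio of IP1 over IP2 CPM against the mean level on a log axis, for 9 of the 10 genes (points with exact 95% intervals) and for 13946 other genes that averaged 1 CPM or more and had a count in both libraries (grey), 14 of which lie outside the axis. Dashed lines mark 2-fold. Pth1r, at 1.44, stands above nearly all genes of its level, Adcyap1r1, at -0.79, stands near the lower edge, and Calcrl, Ramp1 and Ramp2 lie within the bulk.

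**Figure D4:**
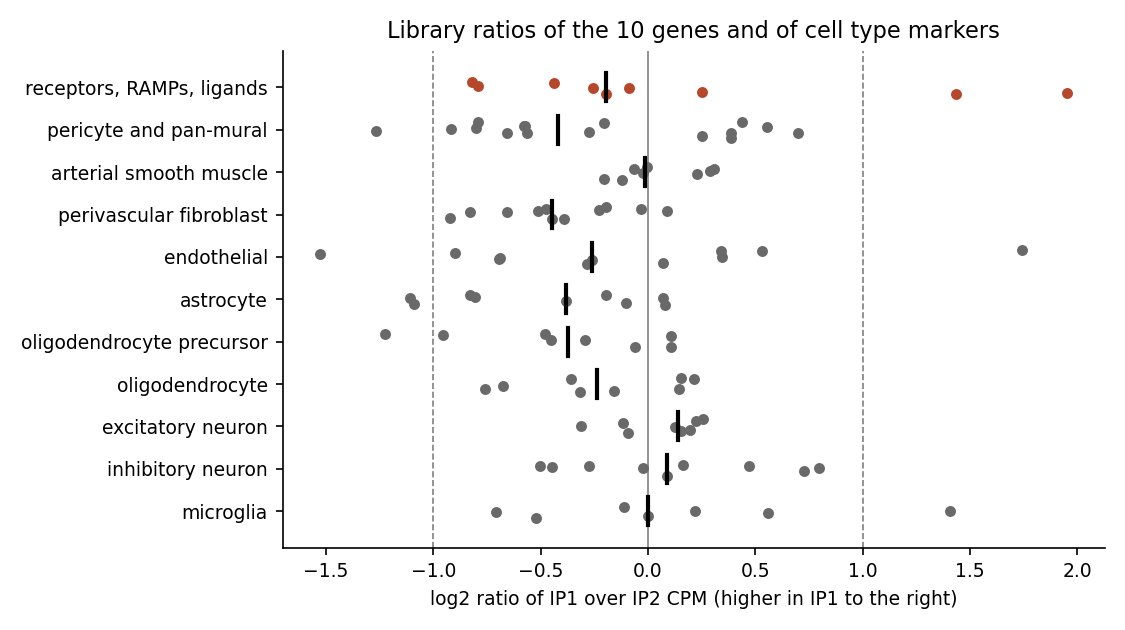
Log2 ratio of IP1 over IP2 CPM of the receptors, RAMPs and ligands (top row) and of the markers of each cell type, for genes that averaged 1 CPM or more. Each point is a gene, black bars are list medians and dashed lines mark 2-fold. The marker medians lie between -0.45 (perivascular fibroblast) and 0.14 (excitatory neuron), and the points of Pth1r (1.44) and Ramp3 (1.95) lie to the right of every marker of the mural, fibroblast, astrocyte, oligodendrocyte and neuron lists.

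Of the 9 genes, the promoters of the 4 that differed most between the libraries are shown, since Pth1r and Ramp3 moved towards IP1 and Adcyap1r1 and Vipr2 towards IP2. Sequences are from RefSeq (GRCm38.p6), from 250 bases before to 50 after an annotated start, 5′ to 3′ on the gene's strand. The windows are chr9:110747096-110747395 (minus strand) for Pth1r, chr11:6658283-6658582 (plus) for Ramp3, chr6:55451728-55452027 (plus) for Adcyap1r1 and chr12:116077476-116077775 (plus) for Vipr2. Capitals mark matches, on either strand, to the core of the cyclic AMP response element (TGACG), the GC box (GGGCGG) or the TATA box (TATAAA).
Pth1r: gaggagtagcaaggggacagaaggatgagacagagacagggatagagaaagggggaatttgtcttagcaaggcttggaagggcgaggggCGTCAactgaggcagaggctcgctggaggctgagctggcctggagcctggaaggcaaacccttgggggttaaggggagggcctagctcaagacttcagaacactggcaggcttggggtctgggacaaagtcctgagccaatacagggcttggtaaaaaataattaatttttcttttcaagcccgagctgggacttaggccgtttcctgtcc
Ramp3: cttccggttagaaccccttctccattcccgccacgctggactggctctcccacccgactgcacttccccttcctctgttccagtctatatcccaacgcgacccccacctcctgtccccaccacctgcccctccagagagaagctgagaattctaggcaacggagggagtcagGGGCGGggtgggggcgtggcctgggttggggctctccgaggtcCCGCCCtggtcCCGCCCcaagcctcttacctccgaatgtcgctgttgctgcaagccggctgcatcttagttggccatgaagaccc
Adcyap1r1: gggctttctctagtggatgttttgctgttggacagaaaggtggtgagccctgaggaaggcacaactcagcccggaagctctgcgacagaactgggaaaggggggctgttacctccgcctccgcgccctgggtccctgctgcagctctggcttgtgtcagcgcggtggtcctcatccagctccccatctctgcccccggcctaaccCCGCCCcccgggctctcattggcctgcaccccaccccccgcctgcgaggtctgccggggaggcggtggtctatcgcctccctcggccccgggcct
Vipr2: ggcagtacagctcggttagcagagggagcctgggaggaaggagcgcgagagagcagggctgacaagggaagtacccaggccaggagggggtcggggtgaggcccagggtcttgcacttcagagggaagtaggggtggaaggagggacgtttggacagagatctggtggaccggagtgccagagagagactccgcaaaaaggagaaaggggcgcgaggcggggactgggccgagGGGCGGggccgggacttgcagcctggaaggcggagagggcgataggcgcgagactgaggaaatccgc

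The Pth1r window held 1 match to TGACG and none to the other motifs. The Ramp3 window held 3 GC boxes, and the Adcyap1r1 and Vipr2 windows 1 each, with no TGACG or TATAAA. No matches overlapped in these 4 windows. Of all 32851 RefSeq windows of 300 bases, 20.8% held TGACG, 35.7% GGGCGG and 13.6% TATAAA, so such matches are common. The Pth1r window was 54.3% G and C, and those of Ramp3, Adcyap1r1 and Vipr2 63.7%, 67.3% and 65.3%. Pth1r has 3 windows in the table, the shown one being that of the most upstream start, and counts per gene do not tell the starts apart. The Adcyap1r1 and Vipr2 windows lie inside the gene spans, which begin further upstream, at 55451501 and 116077420. The other Pth1r windows held 1 and 4 GC boxes and no TGACG, at 68.0% and 69.3% G and C. Of the 10 genes, 9 had a window, and Ramp2 had none.

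The machinery downstream of these receptors was well counted. Of 18 genes of receptor coupling and cyclic AMP signalling, 18 reached 10 CPM in both libraries, against 47% of all 19580 genes with a count. The lists in the paragraphs below stand beside the same share. Kcnj8 and Abcc9 are also among the 16 pericyte and pan-mural markers. The median of the 18 genes was 177 CPM in IP1, against 151 CPM in IP2. Gnas, the stimulatory G protein subunit, had 2381 CPM in IP1 and 2303 CPM in IP2. Prkar1a (1005 and 986 CPM) and Prkacb (682 and 664 CPM), the regulatory and catalytic subunits of protein kinase A, also differed little. Abcc9, a subunit of the vascular potassium channel that CGRP opens in smooth muscle, had 330 CPM in IP1 and 571 CPM in IP2. Ackr3, a scavenging receptor of adrenomedullin in mice, had 41.6 CPM in IP1 and 58.97 CPM in IP2. Of these 18 genes, 9 were higher in IP1 and 9 in IP2, and 0 passed 2-fold. Means of the 18 genes ran from 17.1 CPM (Crem) to 2342 CPM (Gnas). Of all 2484 genes with a mean of 100 CPM or more, 0.523% passed 2-fold. The share was 0.644% of genes from 30 to under 100 CPM and 3.19% of those from 10 to under 30 CPM.

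Of 10 enzymes that process or break down peptides, 6 reached 10 CPM in both libraries, and the list median was 30.3 CPM in IP1, against 43.5 CPM in IP2. Cpe, a carboxypeptidase of prohormone processing, had 158 CPM in IP1 and 215 CPM in IP2. Pcsk2, a prohormone convertase, had 88.1 CPM in IP1 and 94.3 CPM in IP2. Ece1, the endothelin-converting enzyme, had 144 CPM in IP1, against 231 CPM in IP2, and Ide, the insulin-degrading enzyme, had 185 CPM in IP1, against 163 CPM in IP2. The chymase gene Cma1 had no count in either library. Pam, the enzyme that amidates CGRP, adrenomedullin, VIP and PACAP, had 49.5 CPM in IP1, against 72.9 CPM in IP2.

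The other receptors of class B were scarce. Of 10 such genes, 0 reached 10 CPM in either library, and their median was 0.18 CPM in IP1, against 0.87 CPM in IP2. Glp1r (3.10 CPM in IP1, 1.84 CPM in IP2) and Crhr1 (1.98 and 2.75 CPM), receptors of glucagon-like and corticotropin-releasing peptides, were at low levels, as were Pth2r and Glp2r. Gcgr and Ghrhr had no count in either library, and Calcr, the calcitonin receptor gene that also pairs with RAMPs, had none in IP1 and 5 counts in IP2. Among 17 receptors of other vasoactive peptides, 4 reached 10 CPM in both libraries, and the list median was 4.34 CPM in IP1, against 1.81 CPM in IP2. These were the endothelin receptor genes Ednrb (77.6 CPM in IP1, 175 CPM in IP2) and Ednra (74.8 and 109.7 CPM), the neuropeptide Y receptor gene Npy1r (22.1 and 21.8 CPM) and Tacr1 (11.2 and 13.6 CPM), the substance P receptor gene. Bdkrb1, a bradykinin receptor gene, had no count in either library.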

How the data were processed

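The authors' deposited files hold 1 raw count per gene symbol for each of 2 TRAP libraries, with no normalization. They were made with STAR 2.0.0e on mm10 and HTSeq, per the submitters' processing notes. Annotation and strand: not given in the sources used here. Summary lines and a row named unknown (1 read in IP1, 0 in IP2) were left out. Reads in genes were 58.1% of listed reads in IP1 and 57.7% in IP2, and multiply aligned reads were not counted in genes.

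Counts were scaled to CPM on total gene counts. Levels carry exact Poisson intervals, ratios of IP1 over IP2 exact conditional binomial intervals, and RAMP shares Clopper-Pearson intervals, all at 95% and for counting error only, since PCR copies were not marked. In shares of all genes past a fold, 0.5 counts were added in both libraries where a gene had none in 1 of them. With 1 group, no p-value was computed. The ratio rule and its intervals were checked on data simulated with counting error only. The spread between IP1 and IP2 went beyond counting error, so the check does not extend to that spread. The planned levels per length were not run because no exon lengths were used here, so RAMP shares are of counts. Alternatives were edgeR 4.0.16 TMM factors, DESeq2 1.42.0 size factors and totals without Rn45s, besides other thresholds. Software was R 4.3.3, Python 3.11.15, numpy 2.4.6, pandas 2.3.3, scipy 1.17.1 and matplotlib 3.10.9.

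Members and lists were chosen with earlier results of these data known. The text names all 10 members, Gdnf, the top 4 genes of each pathway list with up to 4 that had no count, and the top 2 of a marker list. Ackr3, Pam, Calcr, Calcb, Cldn5, Pecam1, Tek and C1qb were added after their values were seen. By RefSeq spans (GRCm38.p6), Ramp3 overlaps the pseudogene Gm11978 (11 counts in IP1, 0 in IP2). Adm, Vipr2 and Pth1r overlap noncoding genes that have no row in the counts.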

Additional observations from a re-analysis of the deposited data

How the results depend on the processing

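Of the 10 genes, 5 reached 10 CPM in both libraries under TMM, DESeq2 size factors, totals without Rn45s and a threshold of 5 CPM, and 5 in each library taken alone. At 20 CPM the number was 2 (Adcyap1r1 and Calcrl). Pth1r and Ramp3 remained the 2 genes past 2-fold under all 3 scalings. At 1.5-fold the number was 4, and without the filter on low values it was 3, with Calca added. Leaving out a library, the share of RAMP counts ranged from 39.7 to 44.2% for Ramp1, 54.5 to 55.1% for Ramp2 and 1.26 to 5.22% for Ramp3. TMM moved every log2 ratio by -0.05 and DESeq2 by -0.06, and no member changed sign. All 30 alternative mean levels lay within 1 SD of those reported. TMM and DESeq2 lowered CPM in IP1 and raised it in IP2, so means over both libraries changed little. Each scaling shifted every log2 ratio equally, so leaving the exact interval depended on its width, and so on depth. The interval of Calca has no upper end. Of the alternative log2 ratios, 26, with those of Calca included, stayed within the exact interval of the ratio and 4 fell outside. For Calcrl these were -0.249 (TMM) and -0.251 (DESeq2), against -0.246 to -0.146. For Adcyap1r1 they were -0.847 (TMM) and -0.849 (DESeq2), against -0.834 to -0.753. Alternatives by exon or coding length were not run. No paired analysis was possible because there is only 1 group. Depth limits genes with few counts, such as Calca and Ramp3, whose intervals are wide.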

Other observations

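Among the other class B receptor genes, Pth2r and Crhr2 differed between the libraries at low levels. Pth2r, a receptor of the parathyroid hormone family, had 33 counts or 0.51 CPM in IP1 and 221 counts or 3.04 CPM in IP2, a log2 ratio of -2.59. Crhr2, a receptor of urocortins, had 4 counts or 0.061 CPM in IP1 and 98 counts or 1.35 CPM in IP2, a log2 ratio of -4.46. Dpp4, a peptidase that cleaves several peptides of this family, had 175 counts or 2.68 CPM in IP1 and 43 counts or 0.59 CPM in IP2, a log2 ratio of 2.18. Of other genes with a mean within 2-fold of that of the gene, 4.63% of 2161 differed at least as much as Pth2r, 6.50% of 1892 as much as Crhr2 and 7.98% of 2119 as much as Dpp4. These 3 genes were named after their values were seen.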
